A study of Mus musculus with 24 samples.

Results

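Conventional CD4 T cells (Tconv) of the liver were compared with those of the liver-draining lymph node (LDLN, here also the node), using 6 of the 24 libraries of the series. Genes with a normalized read count of at least 10 in at least 3 of these 6 libraries were taken, which were 15898 of the 35612 genes in the table. Both groups were from male C57BL/6 mice, 5 months old, of the Foxp3-Thy1.1 reporter strain, in which cells that express Foxp3 carry the surface protein Thy1.1. No treatment is named in the labels. Each of the 3 libraries per tissue was a pool of cells from 3 mice, enriched for CD4 and then sorted as live CD45+, TCRβ+, CD4+ cells without NK1.1, CD8α or CD1d-tetramer staining. The Tconv studied here were the Thy1.1-negative cells of that gate, and the Thy1.1-positive cells, regulatory T cells (Treg), formed other groups. The question is how CD4 T cells lying within an organ differ from those in the node that drains it. The spread that p-values rest on is that between pools, and the labels do not say whether equal replicate numbers share mice.

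Naive CD4 T cells circulate between blood and lymph nodes, guided in by receptors such as CCR7 and out by the sphingosine 1-phosphate receptor S1PR1. After activation a part of them becomes helper cells of defined kinds, such as Th1 cells, which make interferon-γ, and follicular helper cells, which stay in the node and help B cells. Effector and memory cells exchange node-homing receptors for chemokine receptors and integrins that lead to or hold them in organs, and the liver sinusoids are rich in such cells and in NK cells and innate-like T cells.

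The labelled cell type was checked first. Recovered depth of the 6 libraries was 17524296 to 25398037 reads, with 21991 to 28001 genes above 0. Cd4, which encodes the co-receptor of the gate, had values of 18321, 15467 and 18636 in liver and 18006, 18315 and 15862 in the node, in the order of replicates 1, 2 and 3, as for all values below. Cd3e, a chain of the T cell receptor complex, had 23914, 20836 and 24788 in liver and 25841, 25185 and 22343 in the node. Both genes overlapped between tissues, and neither passed the test (log2 differences 0.01 and −0.08, adjusted p = 0.99 and 0.654), although Cd3e did with quantile scaling (adjusted p = 0.00865). Foxp3, whose product marks the excluded Treg, had 305, 23.1 and 492 in liver and 25.4, 30.5 and 560.0 in the node. Foxp3 was thus high in Liver Tconv 1 and 3 and in LDLN Tconv 3, and the tissues overlapped (0.99 ± 1.35, adjusted p = 0.724). Thy1, to which reads of the Thy1.1 reporter may also map, had 1936, 1895 and 2015 in liver and 2193, 2155 and 2248 in the node, lower in each liver library without passing the test (−0.17 ± 0.09, adjusted p = 0.251).

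Liver Tconv 2 stood apart from the other 5 libraries in markers of other cells. Clec4f, which marks Kupffer cells, had 1098 there and at most 5.86 in the other 5, and Cd8a, excluded by the gate, had 16.4, 477 and 19.9 in liver and 14.2, 16.4 and 18.1 in the node. The correlation of log2 values of Liver Tconv 2 with the 3 node libraries was 0.929 to 0.938 across genes, against 0.957 to 0.981 for Liver Tconv 1 and 3. Liver Tconv 2 correlated with Liver Tconv 1 and 3 at 0.966 and 0.971, and Liver Tconv 1 with Liver Tconv 3 at 0.987. Liver Tconv 1 correlated with LDLN Tconv 3 at 0.9805, more than with Liver Tconv 2. Counts are therefore given with and without Liver Tconv 2. A named gene that passed did so in both fits unless the text says otherwise. In bulk samples, fewer cells of a type and less RNA per cell cannot be told apart.

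Liver and node Tconv differed in 2106 of 15898 genes (13.2%) at an adjusted p under 0.05 (limma, all 24 libraries in 1 fit). Higher in liver were 1194 genes (7.51%), with a median log2 difference of 1.11, and lower were 912 (5.74%), with a median of −0.60. Among them 650 were at least 1 log2 unit higher and 180 at least 1 lower. Without Liver Tconv 2, 1012 genes passed (6.37%), 648 higher (4.08%) and 364 lower (2.29%), and 999 passed in both fits (6.28%), 645 higher (4.06%) and 354 lower (2.23%). The 3 liver and 3 node libraries did not overlap in 33.3% of all genes, with liver above in 16.0% and below in 17.3%. Liver Tconv 2 was the highest of the liver libraries in 781 of the 1194 higher genes (65.4%) and in 34.4% of all tested genes. Liver Tconv 1 was the highest in 8 of the 1194 (0.67%), against 32.3% of all tested genes. Among the 912 lower genes, Liver Tconv 2 was the lowest liver library in 495 (54.3%) and Liver Tconv 1 in 16 (1.75%). Over all tested genes these shares were 36.9% and 36.6%. LDLN Tconv 3 was the lowest node library in 551 of the 912 lower genes (60.4%) and in 46.3% of all tested genes. The median log2 difference over all genes was 0.006, and 0.007 without Liver Tconv 2. The split between directions depended on the scaling, with 1110 higher and 1354 lower after quantile scaling, and 985 and 1274 after upper quartile scaling.

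Cytotoxic genes and killer lectin-like receptors held 5 of the 12 largest named increases. Gzmb, which encodes the protease granzyme B (chromosome 14, 56258838 to 56262260 on GRCm38), had 497, 1890.2 and 822 in liver and 6.09, 4.68 and 10 in the node. The ranges lay far apart, with a log2 difference of 6.91 ± 0.44, adjusted p = 1.24e-09 (6.39, adjusted p = 4.94e-09 without Liver Tconv 2). Gzma, another granzyme, had 239, 2052 and 428 in liver and 10.1, 30.5 and 15.1 in the node (5.07 ± 0.80, adjusted p = 0.000193). Of 19 cytotoxic genes tested 11 were higher in liver and the other 8 did not pass, with a median of 0.75. Without Liver Tconv 2, 9 were higher and the median was 0.57. Prf1, which encodes the pore-former perforin, was among those that did not pass, with 1345, 1799.9 and 1165 in liver and 1351, 1254 and 1137 in the node (0.18 ± 0.20, adjusted p = 0.633). The other granzyme genes Gzmc (0.39 ± 0.35, adjusted p = 0.541), Gzmk (0.49 ± 0.81, adjusted p = 0.783) and Gzmm (0.53 ± 0.35, adjusted p = 0.378), chosen after their values were seen, did not pass either.

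Killer lectin-like receptors are inhibitory and activating receptors best known from NK cells and carried by some T cells. Of 14 such genes 13 were higher, with a median of 3.86, and 10 without Liver Tconv 2, with a median of 3.48. Klrc1, which encodes the receptor chain NKG2A (chromosome 6, 129666015 to 129678973), had 326, 1371 and 840.4 in liver and 8.12, 7.03 and 9.03 in the node (6.32 ± 0.61, adjusted p = 5.54e-07). Klrk1, which encodes the activating receptor NKG2D, had 529, 3252 and 1047 in liver and 64.9, 45.7 and 54.2 in the node (4.46 ± 0.60, adjusted p = 3.93e-05). No library of one tissue reached the range of the other in either gene, which for Klrc1, among the largest increases, the naming rule required. The pseudogene Klra13-ps had the largest increase of all named genes, with 232, 1566 and 389 in liver and 3.04, 1.17 and 5.02 in the node (7.12 ± 1.03, adjusted p = 8.87e-05). Klra7 and Klra9, Ly49 receptors, had 0 in LDLN Tconv 1 and 2 and at most 4.01 in LDLN Tconv 3, against 73.9, 441 and 57.8 and 59.9, 619 and 68.8 in liver (adjusted p = 0.00013 and 0.000323). Members of these receptor families have near-identical copies, and reads may be split between them.

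NK cell markers were measured beside both groups. All 9 NK genes tested of 11 were higher in liver, and 6 without Liver Tconv 2, with a summed level over the 11 genes of 1249.7, 10477 and 2467 in liver and 322, 327 and 223 in the node. Of the 9, Gzma, Klra4, Klra9, Klrb1c and Klre1 are themselves members of the cytotoxic or lectin-like receptor lists. Of the other 4, Tyrobp and Itga2 were higher in both fits, and Fcer1g and Klri2 not without Liver Tconv 2 (adjusted p = 0.134 and 0.0782). Klrb1c, which encodes the NK1.1 protein that the gate excludes, had 394, 1716 and 1051 in liver and 104, 129 and 53.2 in the node (3.31 ± 0.61, adjusted p = 0.000935). Ncr1, an NK receptor that conventional T cells lack, had 992 in Liver Tconv 2 and at most 18.9 in the other 5 libraries. Of 8 tested marker genes of CD8 cells and unconventional T cells 5 were higher, in both fits, with sums of 917, 4356 and 1334 in liver and 601, 590.3 and 580.0 in the node. These included Zbtb16, which encodes the innate-like T cell factor PLZF, with 75.5, 235 and 190.4 in liver and 17.2, 9.37 and 17.1 in the node (3.33 ± 0.55, adjusted p = 0.000306), and the gamma chain constant gene Tcrg-C2, with 114, 532 and 189 in liver and 34.5, 21.1 and 15.1 in the node. The part of these cells in the cytotoxic and lectin-like receptor results was not tested.

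Of 12 Th1 genes 10 were higher in liver. Ifng, which encodes interferon-γ, had 569, 1443 and 556 in liver and 61.9, 70.3 and 14.1 in the node (4.24 ± 0.59, adjusted p = 6.39e-05). Its master regulator Tbx21, also known as T-bet, had 131, 427 and 190.4 in liver and 45.7, 31.6 and 33.1 in the node (2.57 ± 0.41, adjusted p = 0.000196). Both were higher in each liver library than in any node library, and LDLN Tconv 3 was the lowest of all for Ifng. Il18rap, a chain of the IL-18 receptor, had 1155, 3164 and 1294 in liver and 304, 341 and 120.4 in the node (2.85 ± 0.36, adjusted p = 1.86e-05). The 2 that did not pass were Runx3 (0.38 ± 0.16, adjusted p = 0.127) and Stat4 (0.21 ± 0.11, adjusted p = 0.239), and the median of the list was 1.42. Without Liver Tconv 2, 8 were higher and the median was 1.12, with Cxcr3 (adjusted p = 0.144) and Il12rb1 (0.232) no longer called. These 4 genes were chosen after their values were seen. The chemokine gene Ccl5 had 6996, 18787 and 6679.6 in liver and 1242, 1964 and 397 in the node (3.27 ± 0.50, adjusted p = 0.000154), and Ccl4 had 286, 2375 and 352 in liver and 32.5, 53.9 and 9.03 in the node (4.56 ± 0.94, adjusted p = 0.00227). Among 9 chemokine genes 4 were higher, 2 of them (Ccl5 and Ccl4) also without Liver Tconv 2, while Ccl3 (adjusted p = 0.219) and Xcl1 (0.184) did not pass without it. Of the other helper kinds, 2 of 5 Th2 genes were higher, Gata3 (0.55 ± 0.12, adjusted p = 0.00343) and Il1rl1 (1.08 ± 0.31, adjusted p = 0.0263), the latter not without Liver Tconv 2 (adjusted p = 0.108). Of 9 Th17 genes 1 passed, the factor Rora. Over all genes tested 7.51% were higher, so a count this low is not particular to this list. Rora had 1279, 2490.5 and 1777 in liver and 523, 663 and 348 in the node (1.85 ± 0.24, adjusted p = 3.09e-05).

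**Figure D1:**
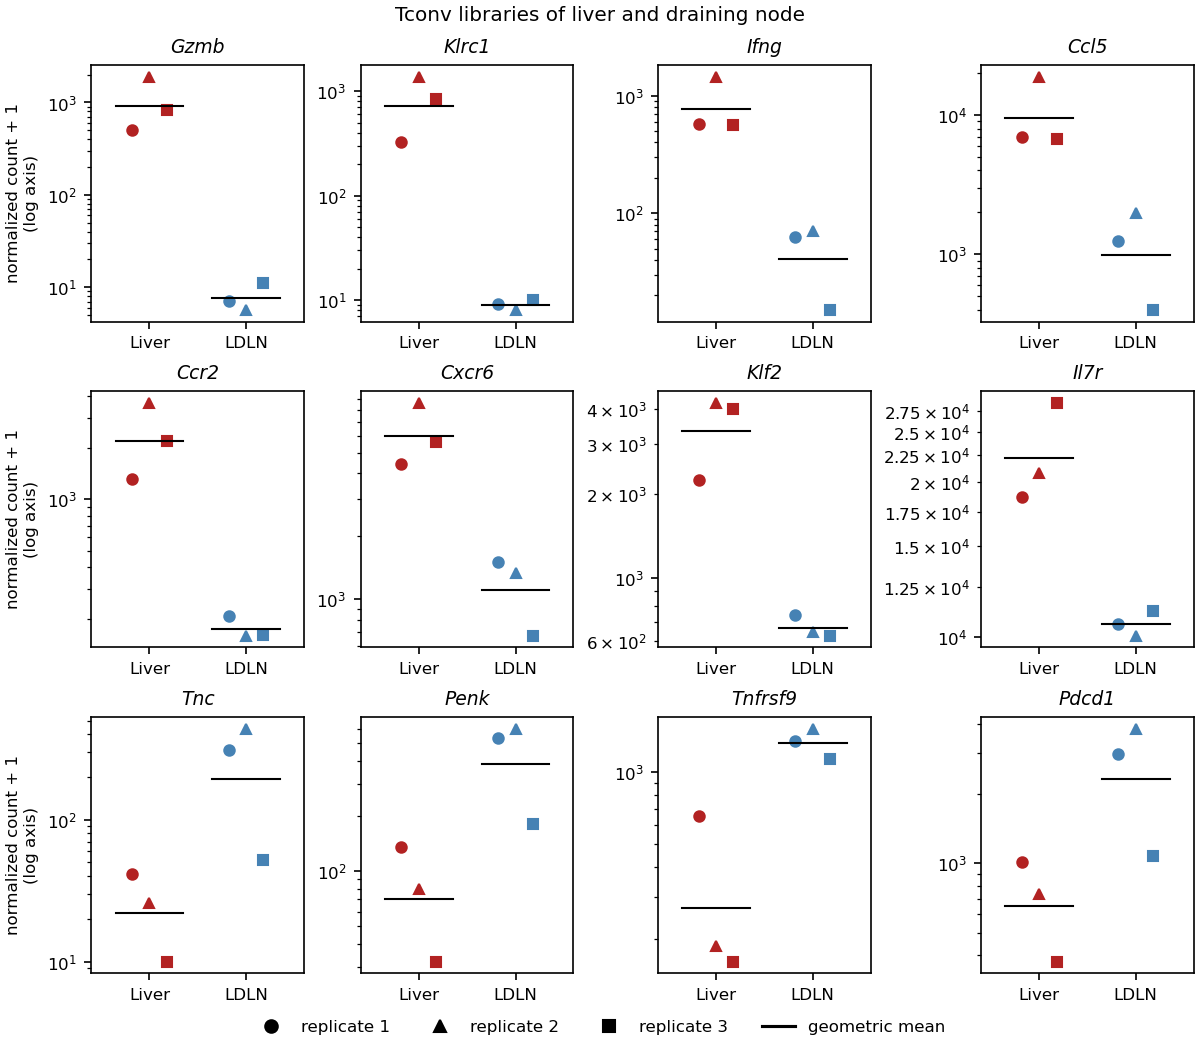
Normalized counts plus 1 on log axes for 12 genes in the 3 liver (red) and 3 LDLN (blue) Tconv libraries, 1 point per library and a bar at the geometric mean. In none of the 12 genes did the tissues overlap, which the naming rule required of the largest increases and decreases among them. LDLN Tconv 3 lay nearest to liver for Tnc, Penk, Tnfrsf9 and Pdcd1.

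Of 16 genes of tissue residency 10 were higher in liver and 6 did not pass. Of the 10, Itga1, Cxcr6, Xcl1, Prdm1, Nr4a1 and Nr4a2 are also members of other lists, Nr4a1 and Nr4a2 of the immediate-early list below. Xcl1 and Nr4a2 did not pass without Liver Tconv 2 (adjusted p = 0.184 and 0.0508). Itga1, which encodes the collagen-binding integrin chain CD49a, had 151, 508 and 210.4 in liver and 17.2, 24.6 and 16.1 in the node (3.67 ± 0.39, adjusted p = 1.82e-06). Cxcr6, a chemokine receptor that holds lymphocytes in liver sinusoids (chromosome 9, 123806475 to 123811760), had 4436, 8672 and 5633 in liver and 1502, 1336 and 669 in the node (2.44 ± 0.36, adjusted p = 0.000113). Liver Tconv 2 was the highest in both, and Liver Tconv 1 and 3 were still above each node library. Cd69, which opposes egress by pulling S1PR1 from the surface, had 11035, 15769 and 13626 in liver and 4773, 4346 and 4116 in the node (1.60 ± 0.17, adjusted p = 3.07e-06). In spleen Tconv Cd69 had 23626, 21603 and 22333, above each liver library, and in blood Tconv 4224, 8170 and 4356. Zfp683, a transcription factor of resident lymphocytes also called Hobit, had 109, 212 and 129 in liver and 50.7, 48 and 37.1 in the node (1.66 ± 0.30, adjusted p = 0.000776). The median of the residency list was 1.63, and without Liver Tconv 2 8 were higher, with a median of 1.43. Itgae, which encodes the integrin chain CD103 of epithelial residency, did not pass (0.17 ± 0.38, adjusted p = 0.851). Zfp683, Cd69, Prdm1, Nr4a1 and Nr4a2, like Itgae, were chosen for the text after their values were seen.

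Among 18 chemokine receptor genes 12 were higher (median 1.16), and 9 without Liver Tconv 2 (median 1.01). Ccr2, the receptor for CCL2, had 1312, 3666 and 2182 in liver and 207, 158 and 161 in the node (3.65 ± 0.27, adjusted p = 1.26e-08, and 3.27, adjusted p = 2.83e-08 without Liver Tconv 2). Ccrl2, an atypical chemokine receptor, had 117, 422 and 127 in liver and 40.6, 35.1 and 29.1 in the node (2.38 ± 0.32, adjusted p = 4.44e-05). In these receptors the node libraries lay close together and the liver libraries spread more widely, with Liver Tconv 2 the highest. Ccr3 passed with Liver Tconv 2 (3.19 ± 0.88, adjusted p = 0.0194) and not without it (adjusted p = 0.173) or without LDLN Tconv 1 (adjusted p = 0.124). Of 15 integrin genes 6 were higher and 1 lower, and 4 and 1 without Liver Tconv 2. Itga2, an integrin chain also found on NK cells, had 158, 306 and 156 in liver and 72, 79.6 and 46.2 in the node (1.59 ± 0.27, adjusted p = 0.000432). The 1 lower integrin was Itgb8, whose protein activates TGF-β, with 135, 99.9 and 48.9 in liver and 419, 669.9 and 211 in the node (−2.15 ± 0.46, adjusted p = 0.00316).

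Of 18 genes of naive cells and recirculation 5 were higher in liver in both fits, 0 passed as lower by limma, edgeR or DESeq2 (0 at an unadjusted limma p under 0.05), and 13 did not pass, with a median of 0.19. Klf2, a factor that drives S1pr1 and so egress (chromosome 8, 72319033 to 72321656), had 2228, 4202 and 3994 in liver and 742, 642 and 624 in the node (2.32 ± 0.17, adjusted p = 1.26e-08). Il7r, the IL-7 receptor that keeps resting T cells alive, had 18707, 20787 and 28465 in liver and 10568, 10048 and 11246 in the node (1.07 ± 0.11, adjusted p = 1.28e-06). The tissues did not overlap in either gene, and neither difference lost its call without Liver Tconv 2 (adjusted p = 1.42e-07 and 5.94e-06). Ccr7, the node-homing receptor, had 28307, 30236 and 33536 in liver and 17957, 15896 and 19001 in the node (0.80 ± 0.14, adjusted p = 0.000735). S1pr1 had 21364, 17697 and 26234 in liver and 16090, 14975 and 16606 in the node and passed by a small margin (0.44 ± 0.14, adjusted p = 0.0468). That call was lost without Liver Tconv 1 or 3 or any node library (adjusted p of 0.0692 to 0.268) and with quantile or upper quartile scaling (0.336 and 0.188). Tcf7 (0.27 ± 0.12, adjusted p = 0.138) and Lef1 (0.14 ± 0.13, adjusted p = 0.565), both factors of naive and memory T cells, did not pass. Tcf7 and Lef1 were chosen after their values were seen.

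In blood (PBMC), Klf2 of Tconv had 1304, 1688 and 1416 and in spleen 2309, 3031 and 2549.5. All 6 values lay above those of the node. Il7r had 25435, 24611 and 22806 in blood and 16519, 14733 and 16379 in spleen, and Ccr7 had 30024, 37756 and 28399.7 and 35415, 39999.5 and 35532. The node was therefore the lowest of the 4 tissues in each library for these 3 genes. Of 9 genes of sphingosine 1-phosphate signalling and egress 3 were higher, Klf2, S1pr1 and Klf3, the last with 5203, 6095 and 6367 in liver and 2577, 2842 and 2708 in the node (1.12 ± 0.13, adjusted p = 4.41e-06). Without Liver Tconv 2, 3 were higher and 1 lower, the receptor gene S1pr3 (−3.26, adjusted p = 0.0449, against −2.60 ± 0.89, adjusted p = 0.0586 with it). Its values, chosen after they were seen, were 9.03, 11.5 and 0 in liver and 35.5, 29.3 and 24.1 in the node.

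Immediate-early genes are induced within minutes by stimulation or stress and encode mostly transcription factors and their regulators. Fos, a subunit of the AP-1 factor (chromosome 12, 85473890 to 85477273), had 9592, 19710 and 11202 in liver and 163, 138 and 109 in the node. Liver and node lay far apart, and the log2 difference was 6.56 ± 0.26, adjusted p = 4.29e-13 (6.25, adjusted p = 9.96e-13 without Liver Tconv 2). Fosb, its relative, had 452, 1668 and 727 in liver and 14.2, 11.7 and 14.1 in the node (5.84 ± 0.46, adjusted p = 2.72e-08). Dusp1, a phosphatase that turns off MAP kinases, had 1077, 2570.2 and 1753 in liver and 69, 69.1 and 56.2 in the node (4.69 ± 0.29, adjusted p = 6.54e-10). In all 3 genes the node libraries differed little from one another, and Liver Tconv 2 was the highest liver library. Jun, the partner of Fos, had 1204, 5313 and 4127 in liver and 156, 67.9 and 169.6 in the node (4.60 ± 0.44, adjusted p = 5.54e-07). Klf6, a zinc finger factor, had 25048, 54692 and 42459 in liver and 3170, 3049 and 2876 in the node (3.68 ± 0.19, adjusted p = 5.15e-11), and is named after its values were seen.

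Of 23 immediate-early genes 17 were higher in liver and 1 lower, with a median of 1.61, and without Liver Tconv 2 13 were higher and 1 lower, with a median of 1.50. The genes did not move as 1 block. Egr2, a factor induced by antigen receptor signals, was lower, with 559, 229 and 99.7 in liver and 1297, 1628 and 848 in the node (−2.37 ± 0.50, adjusted p = 0.00288). Egr1, of the same family, had 812, 1439 and 860.4 in liver and 1033, 1110.3 and 828 in the node and overlapped between tissues (0.03 ± 0.18, adjusted p = 0.955). Nr4a1, whose product Nur77 also follows antigen receptor signals, was higher, with 6865, 10281 and 6335 in liver and 1558, 1904 and 1224 in the node (2.31 ± 0.24, adjusted p = 1.43e-06). Egr1 and Nr4a1 were chosen after their values were seen.

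Spleen and blood Tconv gave other levels of the same genes. Fos had 15197, 13905 and 11672 in spleen and 196, 327 and 214 in blood. Dusp1 had 4853, 3675 and 2096 in spleen and 87.2, 117 and 119 in blood. For both genes, spleen lay in or above the range of liver, and blood lay just above the node. Nr4a1 had 18324, 15982 and 12031 in spleen and 145, 108 and 208 in blood, so that blood was below the node. Egr2 had 1562, 1014 and 677 in spleen and 30.2, 35.8 and 72.7 in blood, and spleen and node overlapped.

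**Figure D2:**
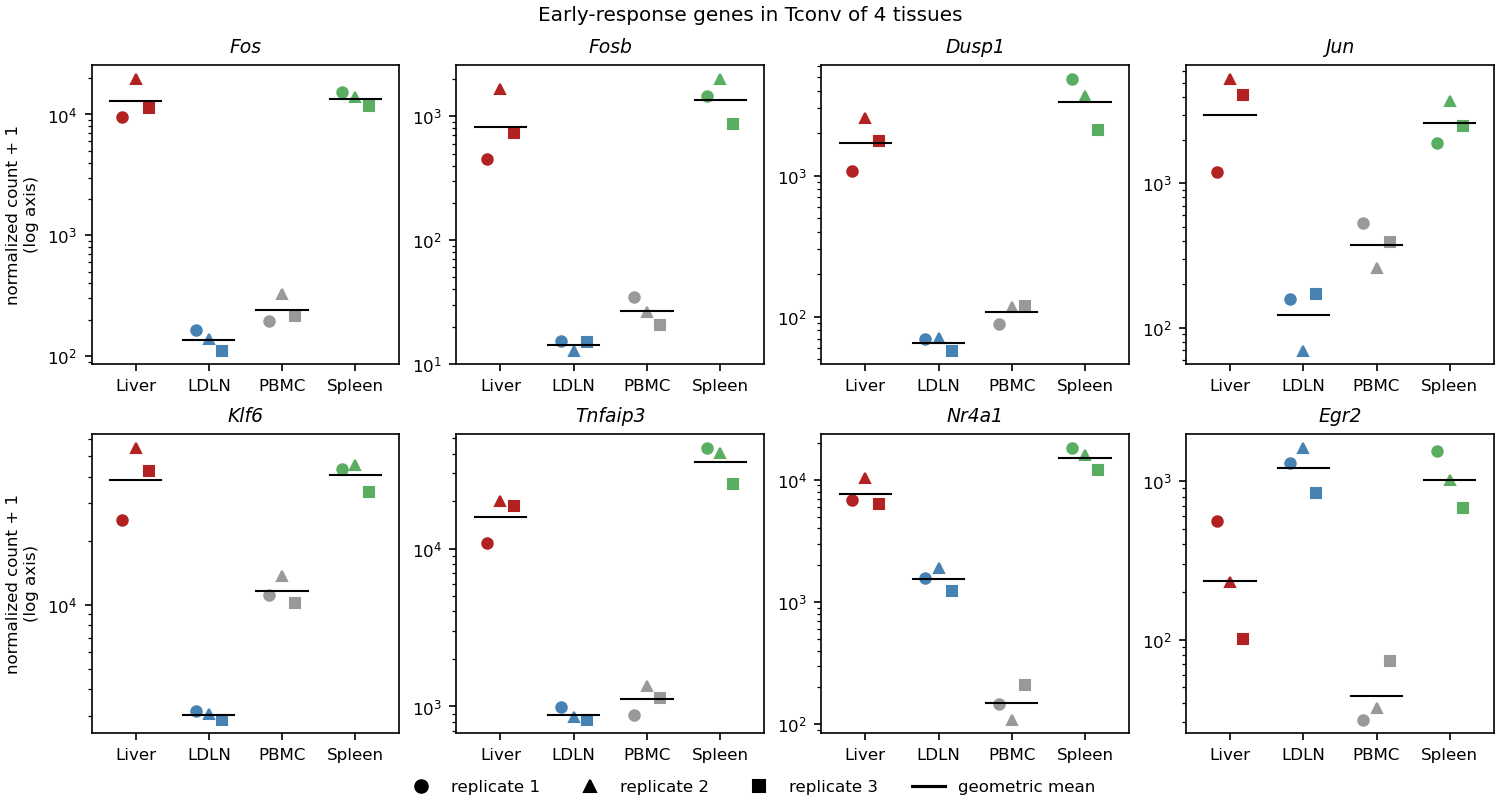
Normalized counts plus 1 on log axes for 8 early-response genes in Tconv of liver (red), LDLN (blue), blood (grey) and spleen (green), 1 point per library and a bar at the geometric mean. Fos was 9592 to 19710 in liver and 109 to 163 in LDLN, while Egr2 was 99.7 to 559 in liver and 848 to 1628 in LDLN.

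The promoters of early-response genes are known to carry sites for CREB and ATF factors, the cyclic AMP response element. RefSeq gives a window for 20 of the 23 genes, and the 250 bases before the annotated start were searched on both strands for TGACG, the core of that element, and for TGACGTCA, the full element, which contains the core on each strand. The 20 genes have 24 windows. The core was found in 14 of these 24 windows (58.3%), which belong to 12 genes, and in 17.8% of all 32851 promoter windows of that length. The full element was found in 2 of the 24 windows (8.33%), those of Dusp1 and Btg2, and in 1.55% of all windows. A match is a run of letters and not a bound site. Shown are Fos, Fosb and Dusp1, 3 of the 4 members with the largest differences, and Btg2, an anti-proliferative gene with the full element whose values were 19056, 30294 and 25425 in liver and 9757, 10393 and 8938 in the node (1.34 ± 0.20, adjusted p = 9.56e-05). Each window is written 5′ to 3′ on the gene's strand (GRCm38.p6), with matches in capitals.
Fos (chr12:85473640-85473889, plus strand): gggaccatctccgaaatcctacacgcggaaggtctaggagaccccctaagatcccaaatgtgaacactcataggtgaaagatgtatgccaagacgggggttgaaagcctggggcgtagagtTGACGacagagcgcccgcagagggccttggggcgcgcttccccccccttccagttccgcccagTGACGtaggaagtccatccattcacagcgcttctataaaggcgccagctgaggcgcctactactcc
Fosb (chr7:19310046-19310295, minus strand): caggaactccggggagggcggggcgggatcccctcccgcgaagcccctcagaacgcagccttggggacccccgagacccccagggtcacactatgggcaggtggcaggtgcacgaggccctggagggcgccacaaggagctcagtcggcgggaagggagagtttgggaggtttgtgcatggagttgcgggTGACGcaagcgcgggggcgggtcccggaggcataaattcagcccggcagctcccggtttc
Dusp1 (chr17:26508473-26508722, minus strand): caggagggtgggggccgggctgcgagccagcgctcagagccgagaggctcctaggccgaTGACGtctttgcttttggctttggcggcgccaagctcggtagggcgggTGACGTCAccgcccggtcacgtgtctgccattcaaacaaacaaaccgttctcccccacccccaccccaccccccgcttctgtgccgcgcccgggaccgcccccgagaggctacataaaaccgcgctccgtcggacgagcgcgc
Btg2 (chr1:134079156-134079405, minus strand): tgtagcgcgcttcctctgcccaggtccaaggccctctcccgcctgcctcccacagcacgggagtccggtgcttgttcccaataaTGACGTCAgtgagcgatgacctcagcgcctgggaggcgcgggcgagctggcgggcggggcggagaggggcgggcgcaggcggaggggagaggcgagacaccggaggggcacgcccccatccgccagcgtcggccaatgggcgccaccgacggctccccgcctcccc

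In the Fos window, matches of the core began 129 and 66 bases before the start, and in the Fosb window 1 began 60 bases before it. The windows of Jun and Klf6, both higher in liver, held no such letters, and those of Egr2, lower in liver, held them in 3 of 5 windows.

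NF-kB genes differed in a few members. Tnfaip3, which encodes A20, an inhibitor of NF-kB signalling, had 10814, 19988 and 18492 in liver and 984, 862 and 823 in the node (4.16 ± 0.24, adjusted p = 2.83e-10). The liver libraries lay far above all node libraries. In spleen Tnfaip3 had 43598, 40511 and 25488 and in blood 887, 1347 and 1138, blood overlapping with the node. Of 16 NF-kB genes 4 were higher and 1 lower, and 3 and 1 without Liver Tconv 2, with medians of 0.13 and 0.07. Nfkbiz, an atypical inhibitor that acts in the nucleus, was higher by 1.19 ± 0.19, adjusted p = 0.000201, and Nfkbid, of the same family, by 0.85 ± 0.17, adjusted p = 0.00178. The lower member was the inhibitor Nfkbie, at the threshold (−0.48 ± 0.16, adjusted p = 0.04999). The subunit genes Nfkb1 (−0.17), Rela (−0.03) and Relb (0.01) did not pass (adjusted p = 0.428, 0.902 and 0.986) and were, like Nfkbie, chosen after their values were seen.

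Rgs1 and Rgs2 of the residency list encode regulators of G protein signalling. Rgs1, which dampens chemokine receptor signals, had 5748, 11297 and 6780.3 in liver and 970.1, 952 and 952 in the node (2.99 ± 0.21, adjusted p = 4.08e-09). Rgs2 had 1428, 3621 and 2845 in liver and 373, 370.1 and 451 in the node (2.62 ± 0.22, adjusted p = 9.89e-08). In spleen Rgs1 had 18420, 21156 and 11520.1 and in blood 469.7, 479 and 503. The order from high to low was spleen, liver, node and blood, with no overlap between neighbouring tissues.

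Of 18 memory and effector genes 12 were higher and 1 lower (median 1.44), and 11 and 1 without Liver Tconv 2 (median 1.17). Anxa1, a phospholipid-binding protein, had 213, 1036 and 292 in liver and 48.7, 32.8 and 31.1 in the node (3.41 ± 0.41, adjusted p = 8.5e-06). Lgals3, which encodes galectin-3, had 152, 681 and 168 in liver and 34.5, 36.3 and 17.1 in the node (3.18 ± 0.45, adjusted p = 6.81e-05), and the calcium-binding S100a4 had 229, 531 and 265 in liver and 86.3, 97.2 and 31.1 in the node (2.30 ± 0.42, adjusted p = 0.000777). Bhlhe40, a factor needed for cytokine production by effector T cells, had 2570, 4499 and 1841 in liver and 580.4, 813 and 181 in the node (2.65 ± 0.55, adjusted p = 0.00227). Liver Tconv 2 was the highest library in each of the 4, and Liver Tconv 1 and 3 lay above all node libraries. Lgals3 is also abundant in macrophages, whose markers were high in Liver Tconv 2, and without that library it was 2.48, adjusted p = 0.000252.

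Cytokine receptors were higher in 9 of 26 cases and lower in 1, and 6 and 1 without Liver Tconv 2 (medians 0.19 and 0.24). Ifngr1, the ligand-binding chain of the interferon-γ receptor, had 5497, 10883 and 8144 in liver and 2710.3, 2673 and 2918 in the node (1.51 ± 0.19, adjusted p = 1.84e-05). Il12rb2, the IL-12 receptor chain of Th1 cells, had 346, 878 and 506 in liver and 201, 178 and 178 in the node (1.53 ± 0.23, adjusted p = 0.000148), and Il10ra, a chain of the IL-10 receptor, had 1037, 2011 and 1224 in liver and 651, 651 and 415 in the node (1.28 ± 0.20, adjusted p = 0.000154). The lower member was Il6st, the shared signalling chain of IL-6 family receptors, with 5461, 3992 and 4953 in liver and 7847, 8159 and 6495 in the node (−0.65 ± 0.13, adjusted p = 0.0024), named after its values were seen. Of 10 genes of cytokine signalling through STAT5 and SOCS proteins 4 were higher and 1 lower, and 3 were higher without Liver Tconv 2. Pim1, a survival kinase, had 546, 1016 and 1185 in liver and 165, 134 and 165 in the node (2.49 ± 0.22, adjusted p = 1.93e-07), and Socs2, a feedback inhibitor, had 192, 385 and 291 in liver and 62.9, 59.7 and 120.4 in the node (1.84 ± 0.26, adjusted p = 6.32e-05). Il2rb, a chain of the IL-2 and IL-15 receptors, passed (1.26 ± 0.31, adjusted p = 0.00877) but not without Liver Tconv 2 (adjusted p = 0.0835).

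Cytokine genes went in both directions, with 4 of 20 higher and 3 lower, and 3 and 2 without Liver Tconv 2. Besides Ifng, Fasl, which encodes a death ligand, was higher, with 1295, 1809.5 and 1324 in liver and 476, 575 and 499 in the node (1.50 ± 0.24, adjusted p = 0.000211). Csf2, which encodes GM-CSF, was higher at low level, with 15.6, 52.8 and 24.9 in liver and 5.07, 3.51 and 7.02 in the node (2.24 ± 0.56, adjusted p = 0.0103), and not without Liver Tconv 2 (adjusted p = 0.103) or LDLN Tconv 2 (0.053). Tnfsf11, the ligand RANKL of lymphoid tissue formation, was lower, with 94.4, 63.4 and 30.9 in liver and 226, 212 and 103 in the node (−1.56 ± 0.38, adjusted p = 0.00773). Its call was lost without LDLN Tconv 1 (adjusted p = 0.0511) or Liver Tconv 3 (0.0702). The helper ligand Cd40lg was higher (0.80 ± 0.11, adjusted p = 7.77e-05), while Lta (−0.88 ± 0.18, adjusted p = 0.00234) and Tnf (−0.74 ± 0.20, adjusted p = 0.0146), both of the TNF family, were lower. Tnf did not pass without Liver Tconv 2 (adjusted p = 0.0609), and these last 3 genes were named after their values were seen.

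Genes lower in liver were changed less than those higher. The 12 largest named decreases ran from −3.13 to −1.96 on the log2 scale, against 5.87 to 7.12 for the 12 largest increases. Tnc, which encodes the matrix protein tenascin C (chromosome 4, 63959785 to 64047015), had 40.2, 25 and 8.97 in liver and 311, 437 and 51.2 in the node (−3.13 ± 0.73, adjusted p = 0.00623). Its call was lost without LDLN Tconv 2 (adjusted p = 0.051) or Liver Tconv 3 (0.0506). Penk, which encodes the opioid precursor proenkephalin, had 134, 78.8 and 30.9 in liver and 531, 598 and 179 in the node (−2.46 ± 0.47, adjusted p = 0.00124). Tnfrsf9, the costimulatory receptor 4-1BB, had 652, 186 and 161 in liver and 1340.5, 1512 and 1130 in the node (−2.29 ± 0.33, adjusted p = 7.44e-05). LDLN Tconv 3 was the lowest node library in all 3. The groups did not overlap, which the naming rule required of the largest decreases. Bcat1, an enzyme of branched-chain amino acid breakdown, had 55, 23.1 and 11 in liver and 161, 149.9 and 103 in the node (−2.44 ± 0.41, adjusted p = 0.000392). Lad1, a filament-anchoring protein, had 80.4, 10.6 and 16 in liver and 199, 119 and 159 in the node (−2.64 ± 0.50, adjusted p = 0.00124). Apol9a and Apol9b, near-identical apolipoprotein L genes between which reads may be split, had log2 differences of −2.16 ± 0.41, adjusted p = 0.00113, and −2.11 ± 0.43, adjusted p = 0.00215.

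The other named decreases were Egr2 and Itgb8, given above, and Arhgap20 (−2.15), Slc9b2 (−2.11) and Vmn2r84 (−1.96), with adjusted p = 0.000191, 0.00153 and 0.000846. When only the 6 libraries were fitted, 7 of the 12 decreases and all 12 increases passed. When Liver Tconv 2 was left out of that fit as well, 0 of the 12 decreases passed by limma, with adjusted p of 0.0595 to 0.111, and all 12 increases did. edgeR and DESeq2 on recovered reads of all groups called the 12 decreases and the 12 increases.

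Follicular helper genes were among the lower ones, with 3 of 11 passing, 2 without Liver Tconv 2, and medians of −0.66 and −0.77. Bcl6, the factor that defines these cells, had 464, 492 and 303 in liver and 838, 974 and 604 in the node (−0.94 ± 0.22, adjusted p = 0.00518, and −1.07, adjusted p = 0.00745 without Liver Tconv 2). Pdcd1, which encodes the inhibitory receptor PD-1 (chromosome 1, 94038305 to 94052553), had 1012, 733 and 373 in liver and 2984, 3832 and 1076 in the node (−1.82 ± 0.49, adjusted p = 0.0154). LDLN Tconv 3 was close to Liver Tconv 1, and the Pdcd1 call was lost without LDLN Tconv 1 (adjusted p = 0.0742), LDLN Tconv 2 (0.101) or Liver Tconv 3 (0.105). Tox2 had 60.7, 47.1 and 30.9 in liver and 189, 224 and 56.2 in the node (−1.56 ± 0.50, adjusted p = 0.0412), with overlap, and lost its call without any of 4 libraries (LDLN Tconv 1 and 2, Liver Tconv 2 and 3, adjusted p of 0.105 to 0.202). Il21, the cytokine of these cells, had 91.9, 55.7 and 18.9 in liver and 379.5, 399 and 69.2 in the node and did not pass (−2.22 ± 0.74, adjusted p = 0.0521), nor did Cxcr5, with 696, 1086 and 374 in liver and 1392, 1826 and 669 in the node (−0.86 ± 0.43, adjusted p = 0.216), both named after their values were seen. In all 5 genes LDLN Tconv 3 was the lowest node library.

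Of 19 co-inhibitory and costimulatory genes 6 were higher and 3 lower, and 4 and 2 without Liver Tconv 2. Ctla4, an inhibitory receptor, had 1411, 2172 and 1716 in liver and 586, 672 and 547 in the node (1.53 ± 0.25, adjusted p = 0.000282), and so differed in the other direction from Pdcd1. Cd244a, a receptor shared with NK cells, had 45.1, 547 and 66.8 in liver and 13.2, 1.17 and 13 in the node (3.98 ± 0.75, adjusted p = 0.00104). Of 16 core Treg genes 2 were higher, Ctla4 and Socs2, and 4 lower, among them Tnfrsf9 and the folate receptor family gene Izumo1r, with 4172, 2778 and 2706 in liver and 7646, 7585 and 4406 in the node (−1.01 ± 0.23, adjusted p = 0.0047). Without Liver Tconv 2, 2 were higher and 3 lower, and Gpr83, named after its values were seen, was no longer called (adjusted p = 0.206 against 0.0249). Il2ra, the high-affinity IL-2 receptor chain, had 1082, 619 and 893 in liver and 498, 445 and 1423 in the node (0.31 ± 0.44, adjusted p = 0.744), was highest in LDLN Tconv 3, which also had the most Foxp3, and was chosen after its values were seen.

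**Figure D3:**
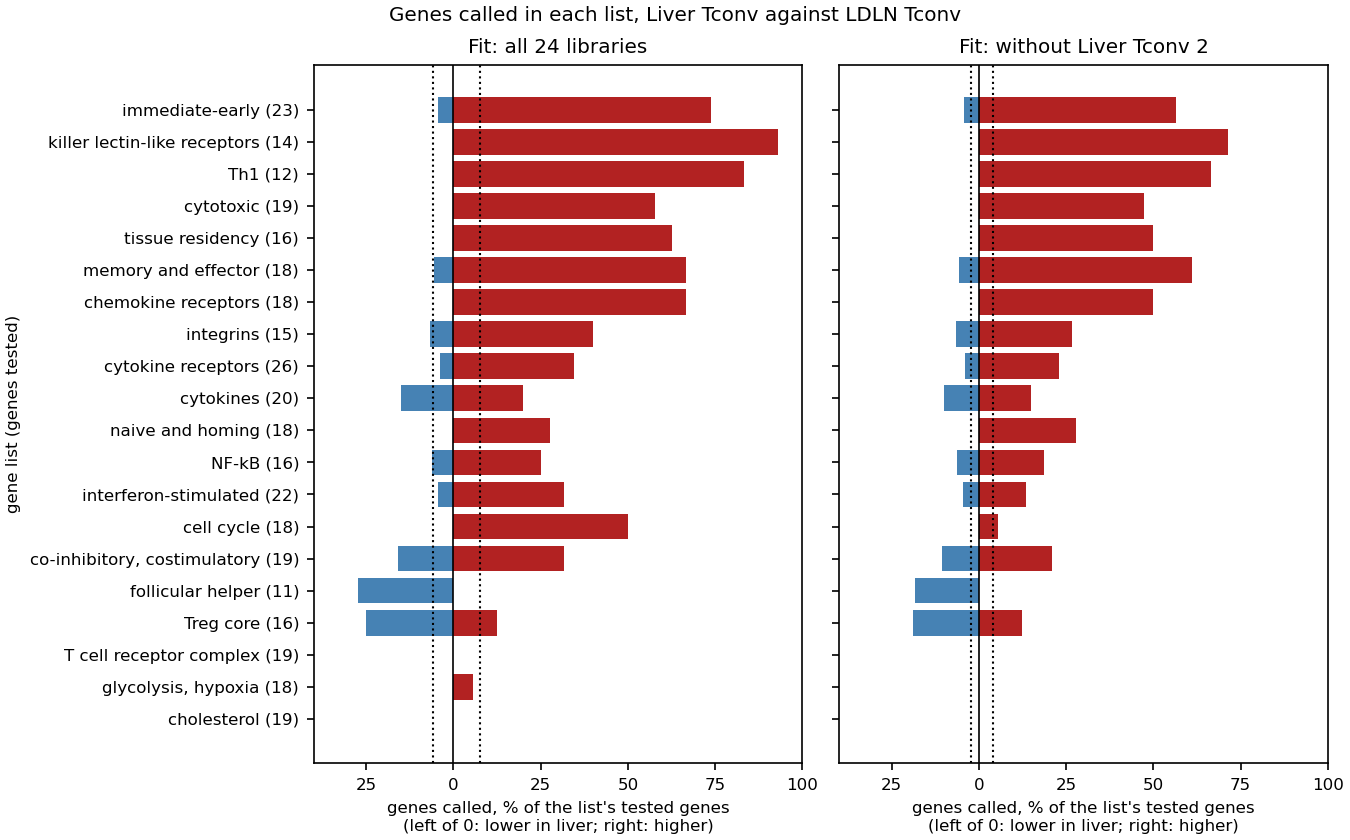
Genes called higher (red, right of 0) and lower (blue, left of 0) in liver as a percent of the tested genes of 20 lists, with all libraries (left panel) and without Liver Tconv 2 (right panel), and dotted lines at the percent of all tested genes called in each direction. Killer lectin-like receptors had 13 of 14 genes higher and the T cell receptor complex had none of 19 called.

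In several groups few or no genes passed, while 13.2% of all genes tested did (7.51% higher and 5.74% lower). These lists are short, their difference from that share was not tested, and the 1 of 8 Gimap genes given below is near it. Of 19 genes of the T cell receptor complex and its signalling 0 passed by limma, edgeR or DESeq2, with 1 lower at an unadjusted limma p under 0.05 and a median of −0.10. Of 19 cholesterol genes 0 passed by any of the 3 tools, with 2 higher and 2 lower at an unadjusted p under 0.05. Of 18 glycolysis and hypoxia genes the glucose transporter Slc2a3 passed (0.60 ± 0.14, adjusted p = 0.00526), and not without Liver Tconv 2 (adjusted p = 0.0562). Ldha, the lactate-forming enzyme, had 14400, 12520 and 13122 in liver and 14733, 15026 and 14392 in the node and passed only with quantile scaling (adjusted p = 0.0287 there, 0.306 without it). Of 8 Gimap genes, GTPases of lymphocyte survival, Gimap6 passed in both fits, with 43430, 48697 and 56026 in liver and 26906, 25940 and 22717 in the node (0.97 ± 0.13, adjusted p = 3.6e-05), while Gimap4 had 36470, 35813 and 35808 in liver and 37235, 35309 and 32629 in the node (0.04 ± 0.10, adjusted p = 0.85).

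How many cell cycle genes were called depended on Liver Tconv 2. With it 9 of 18 were higher by limma (median 0.95), and without it 1, Pcna (median 0.61). Without it 9 were still higher at an unadjusted limma p under 0.05, 1 by edgeR and 4 by DESeq2, and 0 were lower. Summed levels of the list were 10042, 15338 and 11032 in liver and 8239, 8692 and 7113 in the node. Mki67, the proliferation marker, had 809.9, 2022 and 983 in liver and 532, 656 and 257 in the node (1.39 ± 0.32, adjusted p = 0.00524, and 0.99, adjusted p = 0.054 without Liver Tconv 2). Liver Tconv 1 and 3 were above the node libraries, and Liver Tconv 2 was far above both. Interferon-stimulated genes were higher in 7 of 22 cases and lower in 1, and 3 and 1 without Liver Tconv 2. Rsad2, the antiviral enzyme viperin, had 179, 1118 and 348 in liver and 37.5, 45.7 and 97.3 in the node (2.88 ± 0.49, adjusted p = 0.000421), and Mx1, an antiviral GTPase, had 179, 330.4 and 233 in liver and 81.2, 104 and 93.3 in the node (1.37 ± 0.21, adjusted p = 0.000134). The lower member was Irf1 (−0.55 ± 0.14, adjusted p = 0.0115), named after its values were seen.

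Of 12 genes of the BCL2 family 3 were higher, and 1 without Liver Tconv 2, Pmaip1, the death-promoting member NOXA, with 318, 1167 and 394 in liver and 84.2, 91.4 and 30.1 in the node (3.08 ± 0.43, adjusted p = 6.32e-05). Of 10 genes of adenosine and cyclic AMP metabolism 4 were higher and 3 without Liver Tconv 2. Entpd1, the ectoenzyme CD39, had 312, 853 and 338 in liver and 162, 189.7 and 148 in the node (1.43 ± 0.31, adjusted p = 0.0038), and the phosphodiesterase Pde4b had 7626, 10572 and 12952 in liver and 4552, 4277 and 4703 in the node (1.17 ± 0.15, adjusted p = 1.45e-05). Of 17 fatty acid genes 3 were higher and 1 lower, and without Liver Tconv 2 only the desaturase Scd2 passed, lower in liver (−0.88, adjusted p = 0.0449). Without Liver Tconv 2 6.37% of all genes tested passed, so 1 call in the BCL2 or fatty acid list is not particular to it. The Scd2 call was lost without LDLN Tconv 1 (adjusted p = 0.138), LDLN Tconv 2 (0.189) or Liver Tconv 3 (0.224).

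Some of the largest increases belonged to genes of other cells or of stress. Hbb-bs, an adult β-globin gene, had 3133, 76169 and 17684 in liver and 100.5, 239 and 205 in the node (6.56 ± 0.80, adjusted p = 1.27e-05). All 7 erythroid genes tested were higher and 5 without Liver Tconv 2, with summed levels of 7168, 129592 and 33574 in liver and 526, 866 and 683 in the node. The globins made up 0.0303% to 0.509% of liver values, 0.00109% to 0.00257% of node values, 0.14% to 0.206% in blood and 0.0572% to 0.14% in spleen Tconv. Cyp2e1, a hepatocyte enzyme, had 395, 347 and 62.8 in liver and 34.5, 41 and 32.1 in the node (2.49 ± 0.73, adjusted p = 0.0269), and its call was lost without any 1 of 5 libraries (all but Liver Tconv 3, adjusted p of 0.0613 to 0.14). Igha, the IgA heavy chain constant gene, had 416, 14210 and 576 in liver and 15.2, 16.4 and 48.2 in the node (5.97 ± 1.29, adjusted p = 0.00347). Hspa1a, an inducible heat shock gene with the near-identical copy Hspa1b, had 87.8, 1305 and 112 in liver and 6.09, 8.2 and 0 in the node (5.87 ± 1.15, adjusted p = 0.00146), while Hspa8, the constitutive relative, had 27508, 48427 and 25097 in liver and 24229, 29561 and 22180 in the node (0.36 ± 0.26, adjusted p = 0.431). Of 11 heat shock genes 2 were higher, both inducible copies, and Hspa1a alone without Liver Tconv 2. Without that library 6.37% of all genes tested passed, and 1 of 11 is near that share.

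Markers of other cells were counted for the whole of each list. Of 12 B cell genes 0 passed by limma, 4 at an unadjusted p under 0.05, 4 by edgeR and 6 by DESeq2, with sums of 4645, 34390.3 and 5041 in liver and 5936, 5460.2 and 2057 in the node. Of 7 macrophage and Kupffer cell genes tested 3 were higher with Liver Tconv 2 and 0 without it by limma, edgeR or DESeq2 (2 at an unadjusted p under 0.05), with sums over the 16 genes in the table of 352, 12517 and 312 in liver and 226, 353 and 371 in the node. Of 11 dendritic cell genes 4 were higher and 1 lower, and 1 and 1 without Liver Tconv 2, with sums of 12874, 101983 and 14543 in liver and 15771, 13674 and 5061 in the node. Liver Tconv 1 and 3 were within the range of the node in these 3 lists, and Liver Tconv 2 was far above. The lower dendritic cell gene was the factor Zbtb46, with 267, 120.1 and 85.7 in liver and 506, 552 and 436 in the node (−1.81 ± 0.28, adjusted p = 0.000134).

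Plasmacytoid dendritic cell genes were higher in 5 of 7 cases and in 4 without Liver Tconv 2, with sums of 2453, 6367 and 3800.4 in liver and 1789, 1795 and 1586 in the node. Siglech, a defining marker of these cells, had 412, 1606 and 822 in liver and 46.7, 55 and 64.2 in the node (3.87 ± 0.43, adjusted p = 4.28e-06). Here all 3 liver libraries lay above the node. Of 8 endothelial genes 2 were higher, and 1 without Liver Tconv 2, the junction gene Cdh5, with 13.1, 120.1 and 17.9 in liver and 2.03, 1.17 and 4.01 in the node (3.31 ± 0.65, adjusted p = 0.00145). Plasma cell genes had sums of 1059, 8272 and 1287 in liver and 1126, 1288 and 864 in the node. Of 6 tested 2 were higher, Jchain and Sdc1, and without Liver Tconv 2 0 were by limma, edgeR or DESeq2 (1 at an unadjusted limma p under 0.05). Neutrophil genes had sums of 505, 2661 and 512 in liver and 469.8, 519 and 594 in the node, and mast cell and basophil genes 80.4, 707 and 62.8 in liver and 170.5, 108 and 113 in the node. Of the 26 hepatocyte genes in the list 2 were in the table, and the others were not analysed here. The part of these cells in the differences between tissues was not tested.

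**Figure D4:**
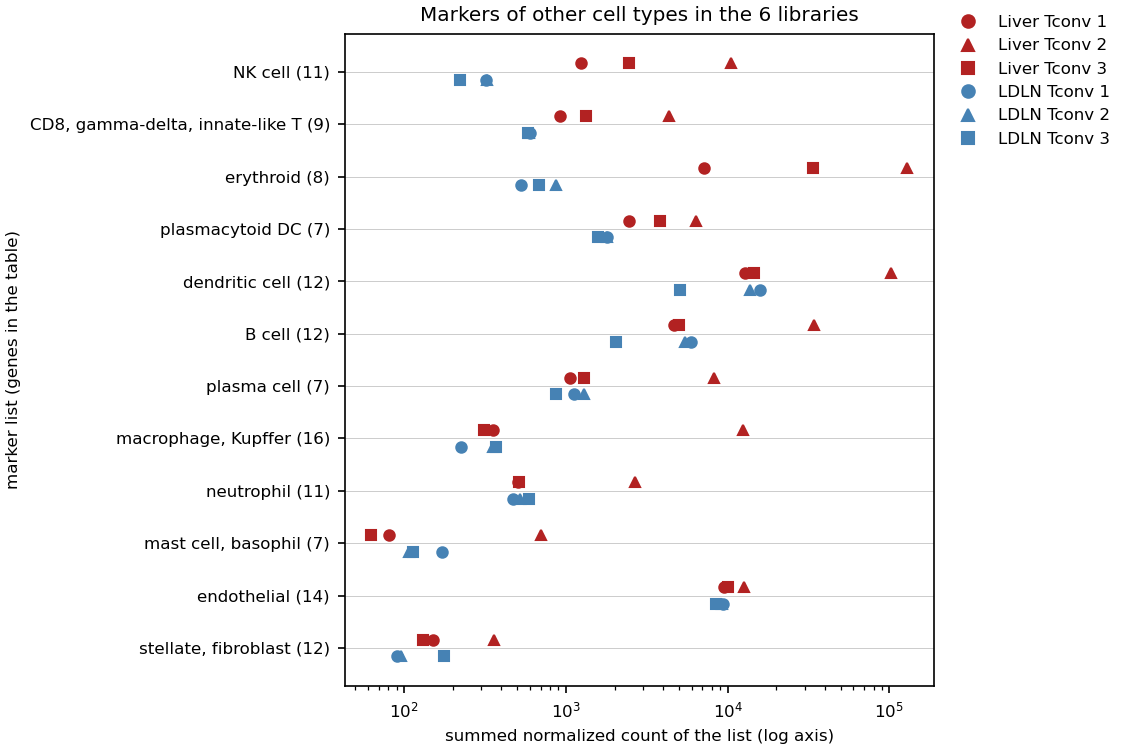
Summed normalized counts, on a log axis, of 12 lists of markers of other cell types in each of the 3 liver (red) and 3 LDLN (blue) Tconv libraries. Liver Tconv 2 was the highest library in all 12 lists. For NK cell, CD8 and unconventional T cell, erythroid and plasmacytoid dendritic cell markers Liver Tconv 1 and 3 also exceeded the node. For endothelial markers they did so narrowly, with 9542 and 10092 against 8469 to 9376 in the node.

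The liver difference was then compared between Tconv and Treg, as liver minus node in Tconv against liver minus node in Treg. Of 15898 genes 441 differed (2.77%), 169 with a more positive value in Tconv (1.06%) and 272 with a more negative one (1.71%). Without Liver Tconv 2, 597 differed, 214 with a more positive value in Tconv and 383 with a more negative one. Among the 597 were 392 of the 441. Counts in lists for this comparison are from all libraries. With Tconv and Treg libraries of equal number in a tissue as a block, 723 differed, among them 413 of the 441. Mmp9, a matrix-degrading protease, was higher in liver by 5.79 in Tconv and 2.02 in Treg (difference 3.77 ± 0.80, adjusted p = 0.0122). Its Tconv values were 181, 524 and 245 in liver and 3.04, 5.86 and 4.01 in the node. Zc3h12c, an RNA-degrading protein, differed by 2.77 in Tconv and −0.48 in Treg (3.25 ± 0.44, adjusted p = 0.000315), and Rgs1 by 2.99 and 0.99 (2.00 ± 0.29, adjusted p = 0.000544). Socs2 had 1.84 in Tconv and −0.68 in Treg (2.52 ± 0.36, adjusted p = 0.000544). Signs of the 2 cell types were opposite for Zc3h12c and Socs2 and equal for Mmp9 and Rgs1.

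Among the more negative values, Lmna, which encodes the nuclear lamina protein lamin A, had 1.99 in Tconv and 5.15 in Treg (−3.16 ± 0.62, adjusted p = 0.00702). Lgals3 had 3.18 and 6.07 (−2.89 ± 0.63, adjusted p = 0.0139). The cell cycle genes Ccnb2, Mki67 and Plk1 had 1.49, 1.39 and 1.40 in Tconv and 4.16, 3.13 and 3.65 in Treg, and 8 of the 18 genes of that list differed between cell types. Both cell types were higher in liver for these 5 genes, with the larger value in Treg. Without Liver Tconv 2, Ccnb2, Mki67 and Plk1 did not pass in Tconv (adjusted p = 0.0766, 0.054 and 0.0967). The immediate-early list had 1 of 23 genes that differed between cell types and the naive and homing list had none of 18. Over all genes tested 2.77% differed, so counts this low are not particular to these lists.

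**Figure D5:**
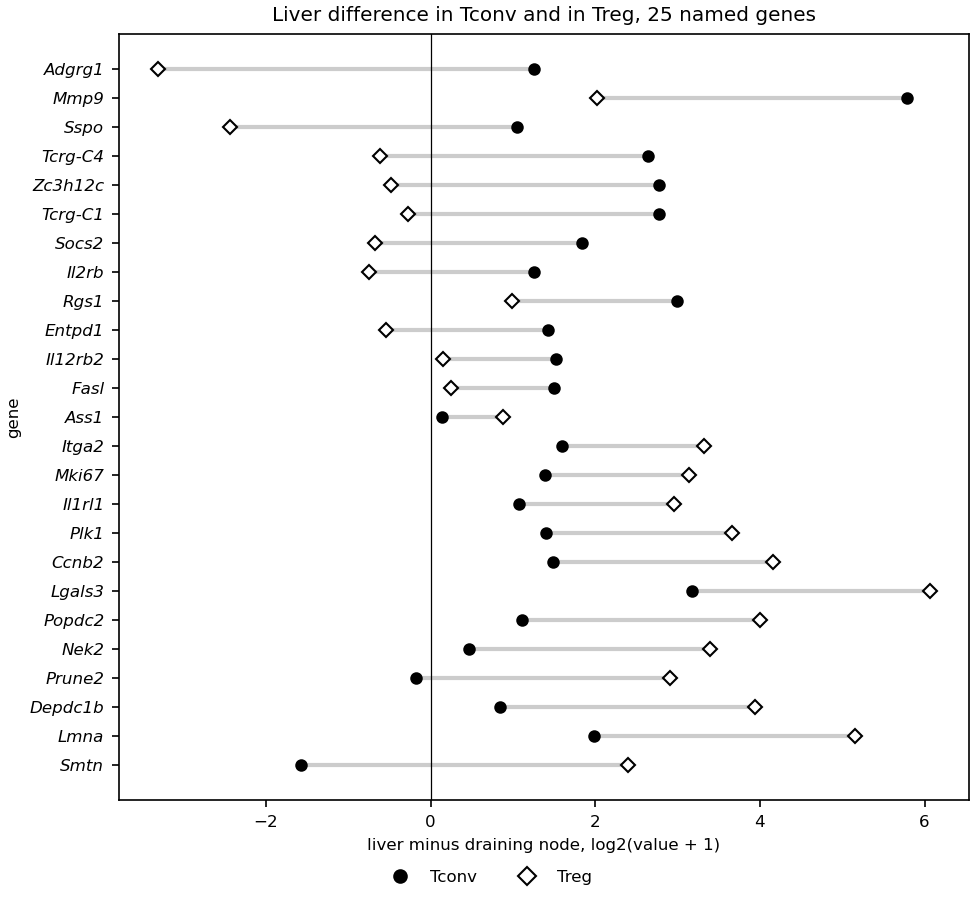
Log2 difference between liver and LDLN in Tconv (filled circles) and in Treg (open diamonds) for the 25 named genes whose difference was not equal between the cell types at an adjusted p under 0.05, ordered by Tconv minus Treg. Adgrg1 has the most positive value (4.58) and Smtn the most negative (−3.96).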

How the data were processed

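Per the labels' protocols, RNA of 24 pools of sorted T cells underwent SMARTer amplification and poly(A) selection before paired-end sequencing. The deposited table holds the authors' normalized read count signal for each gene and library. The submitters' processing notes name GRCm38 as the build. They list HTSeq 0.6.1p1 and SAMtools 0.1.19, and for trimming and alignment Trimmomatic 0.32, Bowtie2 2.2.2 and TopHat2 2.0.11. Annotation release, strand setting and method of normalization are not given in the sources used here. Reads of antisense and overlapping genes therefore cannot be told apart. Every deposited value was a whole multiple of 1 step per library (100% within 0.001), and dividing by it gave the reads used for depth and for edgeR 4.0.16 and DESeq2 1.42.0.

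Values were transformed as log2(value + 1), which understates changes of low genes, and limma 3.58.1 (R 4.3.3) fitted the 8 groups of 24 libraries with a variance trend. A log2 difference is liver minus LDLN, with its standard error. All adjusted p-values are from limma after Benjamini-Hochberg adjustment over the 15898 genes unless another tool is named, with a threshold of 0.05. The script was tested on simulated data. edgeR called 2355 genes and DESeq2 2591. Near-identical copies (Klra, Klrc, globin, Hspa1, Tcrg-C, Apol9 and Gimap genes) may share reads. Alternatives were other pseudocounts, filters and scalings, weights, a replicate block, count tests, fewer libraries and leaving out each library. Within a tissue, the deviations of Tconv and Treg libraries of equal number correlated at 0.38, 0.23 and 0.13 in liver. In LDLN they correlated at 0.15, 0.17 and 0.34. Unequal numbers gave −0.30 to 0.12 in liver and −0.25 to 0.12 in LDLN. Across tissues, LDLN Tconv 3 and Liver Treg 1 reached 0.36. Equal numbers within a tissue were taken to pair libraries, a hint from the data and not from the labels. Values given for the comparison with Treg are from the fit without this pairing unless stated. Symbols were matched for 34645 identifiers, and coordinates are those of GENCODE M21.

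The comparison, its gene lists and the rule for naming genes were chosen with earlier results of these data known, so counts in lists are descriptions. The rule took the 12 largest increases and decreases called with and without Liver Tconv 2, where the tissue with more reads had a mean of 50 or above, with no overlap among the 6 libraries, and no predicted genes or receptor segments. It also took up to 4 genes per list, 6 genes in each direction for the comparison with Treg, and Foxp3, Thy1, Cd4 and Cd3e. Genes outside the rule are marked as chosen after their values were seen, except markers of other cells and Prf1, Pcna and Btg2, which were also chosen so. Some genes that the rule names are not reported here. Promoter sequences are RefSeq's.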

Additional observations from a re-analysis of the deposited data

Results flagged for a closer look

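The liver difference was not equal in Tconv and Treg, by the test of the difference itself, for 25 of the 165 named genes. Of the 165, 12 were named for this difference, which raises the share, and 2.77% of all genes tested differed. Of these 12 were more positive in Tconv. Adgrg1, a G protein-coupled receptor of cytotoxic lymphocytes, had the largest value (4.58), then Mmp9 (3.77), Sspo (3.49), Tcrg-C4 (3.25), Zc3h12c (3.25) and Tcrg-C1 (3.05). Smaller positive values were those of Socs2 (2.52), Il2rb (2.00), Rgs1 (2.00), Entpd1 (1.97), Il12rb2 (1.38) and Fasl (1.25). Adgrg1 and Sspo did not pass in Tconv alone (adjusted p = 0.12 and 0.228). Adgrg1 overlapped between the tissues in Tconv, with 12.3, 105 and 30.9 in liver and 17.3, 11.7 and 13 in the node. A more positive value in Tconv can also come from a lower liver level in Treg.

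More negative in Tconv were 13 genes. These were Smtn (−3.96), Lmna (−3.16), Depdc1b (−3.10), Prune2 (−3.08), Nek2 (−2.92), Popdc2 (−2.90) and Lgals3 (−2.89). Cell cycle genes among them were Ccnb2 (−2.67), Plk1 (−2.25) and Mki67 (−1.75). The rest were Il1rl1 (−1.88), the integrin chain Itga2 (−1.73) and the urea cycle enzyme Ass1 (−0.74). Of the 12 genes named for this comparison 11 passed in each fit that left out 1 library, and Depdc1b was lost without any of 5 libraries (LDLN Treg 1, Liver Treg 2, LDLN Tconv 1 and 3, and Liver Tconv 3). Values are log2 differences of Tconv minus Treg. With 3 libraries per group, no test for outlying libraries was run beyond leaving out each library in turn.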

How the results depend on the processing

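Each library weighs heavily. Leaving out 1 of the 6 libraries gave 1012 to 2804 calls in place of 2106 (648 to 1602 higher, 364 to 1202 lower). The lowest count was without Liver Tconv 2, and counts of 1270, 1299 and 1318 followed without Liver Tconv 3, LDLN Tconv 2 and LDLN Tconv 1. Array weights gave 3672 (1852 higher, 1820 lower), a minimum log2 change of 1 gave 129 (127 and 2), the 6 libraries alone 1111 (700 and 411), and these without Liver Tconv 2 524 (432 and 92). Without Liver Tconv 2, array weights gave 1949 calls in place of 1012 and the 5 libraries alone 524. For the comparison with Treg, in place of 441, array weights gave 1462, a minimum log2 change of 1 gave 2, DESeq2 731, and leaving out 1 library 233 to 597. No gene called in both a main and another fit changed sign. Of 128 named genes called, 89 passed in each fit that left out 1 of the 6 libraries. With only the 6 libraries fitted, 42 of the 128 were no longer called, and 57 when Liver Tconv 2 was left out as well. The 42 included Cd244a, Cdh5, Entpd1, Izumo1r and Pdcd1 (adjusted p of 0.0502 to 0.0705). Some alternatives (count tests, a pseudocount of 10, weights and the 5 libraries for the fit without Liver Tconv 2, and the 12 libraries and the block within tissue for the comparison with Treg) were chosen after seeing the data.

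Replicate numbers were not treated as pairing liver with node Tconv, since not every same-numbered pair was over 0.1: their deviations correlated at −0.11, 0.20 and 0.15. With the replicate number as a block, 2477 genes passed over all groups, 1669 over the 6 libraries, and 640 for the comparison with Treg. With a replicate block within tissue, for which Tconv and Treg of equal number were paired, the latter was 723, and all 25 named genes that differed between the cell types passed again.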
